A study of Mus musculus with 16 samples.

Results

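The genes described here were the subunits of SWI/SNF, the chromatin remodeling complex to which the PBRM1 protein belongs, together with 4 chromatin genes that are mutated in kidney cancer. A list of 33 mouse genes was chosen by gene name, with earlier results of these data known. Each was read from the probe set of highest mean over 16 arrays among those annotated to that gene alone. Of these, 31 were measured, among 22180 genes in all. Smarcd3 shared its probe set with Chpf2 and Actl6a shared its own with Mrpl47, so neither has a value of its own. The list held 4 subunits of the PBAF form (Pbrm1, Arid2, Brd7 and Phf10), 5 of canonical BAF (Arid1a, Arid1b, Dpf1, Dpf2 and Dpf3), 1 of non-canonical BAF (Brd9), 2 ATPases (Smarca2 and Smarca4), 7 core subunits, 3 actin-related subunits, 7 accessory subunits and the 4 chromatin genes Bap1, Setd2, Kdm5c and Kdm6a.

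SWI/SNF complexes use ATP to slide or evict nucleosomes. The catalytic subunit is either of the paralogs SMARCA4 (BRG1) and SMARCA2 (BRM). A shared core joins different targeting subunits: PBAF carries PBRM1, ARID2, BRD7 and PHF10, canonical BAF carries ARID1A or ARID1B with a DPF protein, and non-canonical BAF carries BRD9. Several subunits exist as paralogs that exclude each other from a complex, and loss of one can leave cells dependent on the other. In clear cell renal cell carcinoma, PBRM1 is among the most often mutated genes after VHL, and BAP1, SETD2 and KDM5C are mutated as well.

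Total RNA of kidney cortex from 3-month-old mice was hybridized to 16 Affymetrix arrays, 4 for each of 4 genotypes, to look for early transcriptional events relevant to that tumor. Double mutants carried floxed alleles of both genes (Vhl F/F and Pbrm1 F/F) with Ksp-Cre. Vhl mutants carried Vhl F/F with Ksp-Cre, and Pbrm1 mutants carried Pbrm1 F/F with Ksp-Cre. Wild-type mice were C57BL/6, whereas all mutants were of a mixed background of C57BL/6, BALB/c and 129. Genotype and strain therefore cannot be told apart in any comparison with wild type. Ksp-Cre uses the regulatory region of Cdh16, the gene of kidney-specific cadherin, which is active in tubule epithelium, so cells of the cortex that never express it keep both genes. The labels name no Cre in the wild-type mice. In such bulk tissue, fewer cells of a type and less RNA per cell cannot be told apart. Nothing in the labels says that a group's arrays came from separate animals, so p-values measure array-to-array spread, part of which may be technical. The 16 arrays carry 8 description numbers, whose meaning is not stated and which may mark animals. A group's 4 arrays may then be fewer than 4 independent samples. That limit holds wherever an SD is given with n = 4 or arrays are said not to overlap.

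Levels are given on the log2 scale of the deposited RMA values, on which array medians lay between 5.18 and 5.27. All differences below are log2 fold changes with their standard error from 1 limma model fitted to all genes, with Benjamini-Hochberg adjustment over 22180 genes, and a gene was called at an adjusted p under 0.05. The 9 measured markers of kidney epithelium were all above the lower quartile of an array, which was at most 3.72. Their summed log2 level was 14.65 to 14.72 in double mutants, 14.71 to 14.75 in Vhl mutants, 14.74 to 14.79 in Pbrm1 mutants and 14.81 to 14.85 in wild type. Summed log2 levels of 14 macrophage markers were 10.78 to 11.06 in double mutants, 10.67 to 11.07 in Vhl mutants, 10.02 to 10.07 in Pbrm1 mutants and 10.04 to 10.30 in wild type. Those of 9 endothelial markers were 12.00 to 12.12, 12.08 to 12.28, 11.50 to 11.63 and 11.67 to 11.83 in these 4 groups in that order. Both sets were thus higher in both genotypes with Vhl deletion than in Pbrm1 mutants or wild type, with no overlap.

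The deleted genes themselves did not separate the genotypes on these arrays. Pbrm1 had log2 levels of 8.14, 8.19, 8.17 and 8.02 in double mutants and 8.17, 8.19, 8.24 and 8.15 in Pbrm1 mutants, against 8.26, 8.21, 8.17 and 8.14 in wild type. Its log2 fold change was -0.07 ± 0.07 in double mutants (limma adjusted p = 0.61) and -0.01 ± 0.07 in Pbrm1 mutants (adjusted p = 0.98), each against wild type. Vhl had log2 levels of 6.51, 6.08, 6.08 and 6.20 in double mutants and 6.30, 6.28, 6.29 and 6.25 in Vhl mutants, against 6.55, 6.24, 6.23 and 6.34 in wild type. The groups overlapped for both genes. Which exons the probes cover is not given in the sources used here, and a probe set outside the deleted exons would not report the deletion, so these levels do not check the genotype labels.

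In each comparison 0 to 3 of 31 members were called. In double against Vhl mutants that share was above the share of all genes (9.68% beside 6.35%), and in the other comparisons it was below. Double mutants had 3 of 31 members called against wild type: the ATPase gene Smarca2 and Bap1 were lower and the histone demethylase gene Kdm6a was higher. Of all genes, 12.2% were called in that comparison. Against Vhl mutants, double mutants had 3 members called, Phf10, Arid1a and Kdm6a, all higher, where 6.35% of all genes were called and 3.8% were called higher. None of these 3 calls was kept with arrays averaged per description number. Against Pbrm1 mutants, double mutants had lower Smarca2 and higher Actb, 2 members where 10.2% of all genes were called. Vhl mutants had 1 member called against wild type, Smarca2, which was lower (3.84% of all genes called, 1.79% lower). Pbrm1 mutants had 0 members called against wild type by limma, where 4.04% of all genes were called and 5 of 31 members had an unadjusted p under 0.05 (16.1% of all genes). For the interaction, which asks whether the change in double mutants departs from both single changes added up, limma called 0 members, against 2.63% of all genes, and 7 of 31 had an unadjusted p under 0.05 (15.9% of all genes). At an unadjusted p under 0.05 stood 8 of 31 members in double mutants and 8 in Vhl mutants against wild type (23.4% and 16.4% of all genes). There were 9 in double against Vhl mutants and 9 in double against Pbrm1 mutants (19.4% and 21.7% of all genes). The comparisons share arrays, so they are not independent of each other.

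**Figure D1:**
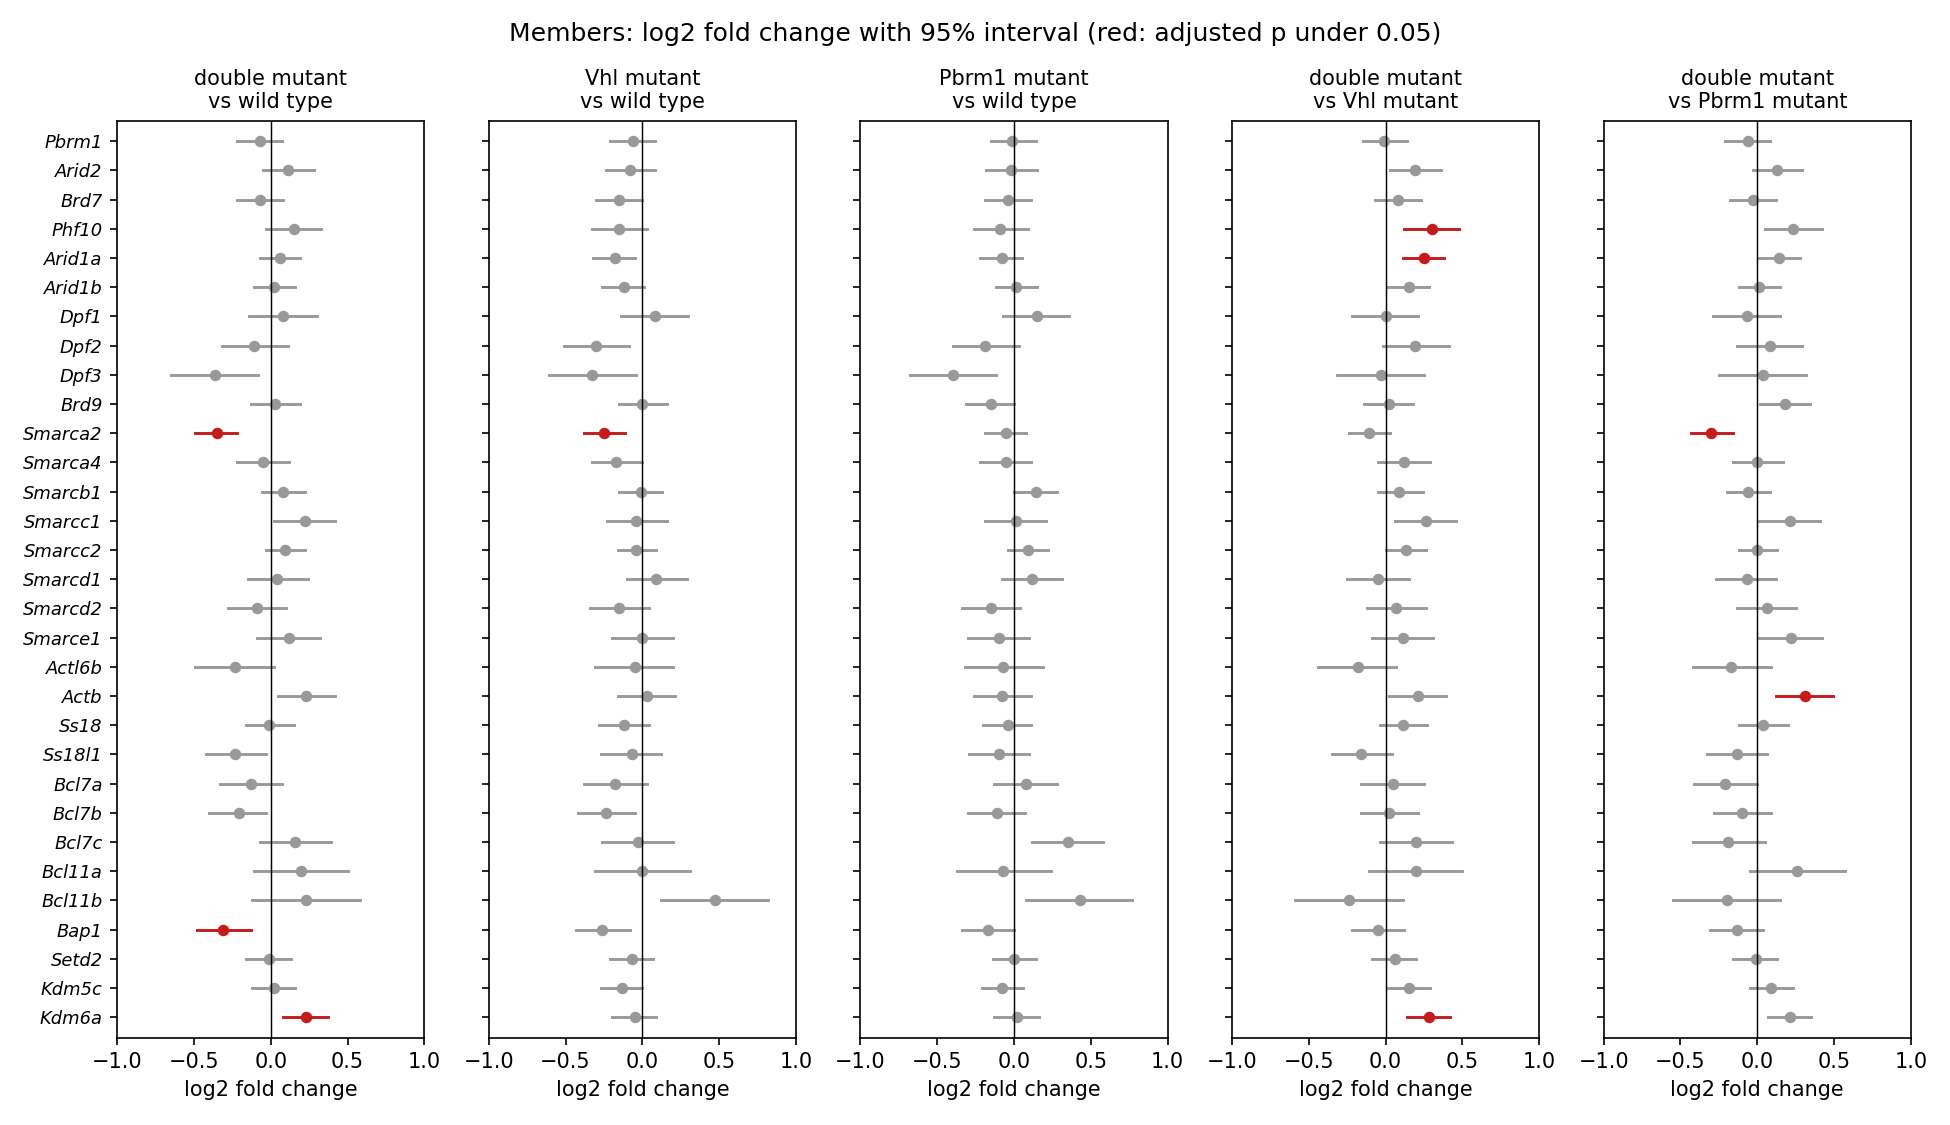
Log2 fold change (points) with its 95% interval (lines) for the 31 measured members in 5 comparisons, with an adjusted p under 0.05 in red. The red points are Smarca2 in 3 panels, Kdm6a in 2 panels, and Phf10, Arid1a, Bap1 and Actb in 1 panel each, and all lie within 0.35 of 0.

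The precision of the arrays bounded most of the other members. The median standard error of a member's log2 fold change was 0.09, and 0.12 for the interaction. In Pbrm1 mutants against wild type, 29 of 31 members had a 95% interval that lay within 1.5-fold in either direction (0.58 on the log2 scale). The count was 30 for double mutants against wild type, 29 for Vhl mutants against wild type, 30 for double against Vhl mutants and 31 for double against Pbrm1 mutants. The intervals that reached furthest belonged to Dpf3, Bcl11a and Bcl11b. The median pooled standard deviation within groups was 0.11 for the members and 0.15 for all genes, which were not matched to the members for expression level.

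The sequences upstream of the 3 members called in double mutants against wild type are given here, since Vhl loss stabilizes hypoxia-inducible factors, which bind the core letters ACGTG or GCGTG. Each is the 250 bases before the transcription start in RefSeq (mouse GRCm38.p6, plus strand in all 3 cases), with matches to these letters on either strand in capitals. Smarca2 is at chr19:26604910-26605159, Kdm6a at chrX:18162325-18162574 and Bap1 at chr14:31251239-31251488.
Smarca2: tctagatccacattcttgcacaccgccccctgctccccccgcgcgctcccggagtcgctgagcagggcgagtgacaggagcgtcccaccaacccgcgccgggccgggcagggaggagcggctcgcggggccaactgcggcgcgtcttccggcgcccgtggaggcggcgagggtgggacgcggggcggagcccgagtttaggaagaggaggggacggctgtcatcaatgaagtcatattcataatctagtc
Kdm6a: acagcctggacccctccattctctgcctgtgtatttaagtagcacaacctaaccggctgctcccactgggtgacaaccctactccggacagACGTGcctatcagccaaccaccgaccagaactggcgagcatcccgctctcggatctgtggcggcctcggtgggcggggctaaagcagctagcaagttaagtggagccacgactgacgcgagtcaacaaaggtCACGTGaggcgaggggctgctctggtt
Bap1: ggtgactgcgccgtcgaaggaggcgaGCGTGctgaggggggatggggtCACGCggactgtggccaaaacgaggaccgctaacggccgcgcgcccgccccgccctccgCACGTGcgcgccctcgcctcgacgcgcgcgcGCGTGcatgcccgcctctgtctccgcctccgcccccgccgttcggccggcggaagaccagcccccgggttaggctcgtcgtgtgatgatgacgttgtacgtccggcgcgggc
Smarca2 held 0 matches, Kdm6a 3 and Bap1 5, where the palindrome CACGTG counts once on each strand. At least 1 match was found in 19 of 30 upstream sequences of 28 member genes (63.3%) and in 12679 of 32851 upstream sequences in the RefSeq table (38.6%). The members' sequences also had a median GC content of 68%, compared with 52.4% over the table. A match is a run of letters only, not a site shown to be bound.

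Smarca2, the ATPase gene also known as Brm, was the member with the lowest adjusted p, and it was lower in both genotypes with Vhl deletion. Its log2 levels were 10.09, 10.12, 10.34 and 10.15 in double mutants and 10.15, 10.31, 10.31 and 10.35 in Vhl mutants. They were 10.48, 10.57, 10.43 and 10.40 in Pbrm1 mutants, and 10.53, 10.45, 10.59 and 10.53 in wild type. All 8 double and Vhl mutant arrays lay below all 8 arrays of Pbrm1 mutants and wild type. The log2 fold change was -0.35 ± 0.06 in double mutants against wild type, 1.28-fold lower (limma adjusted p = 0.00074). It was -0.30 ± 0.06 in double against Pbrm1 mutants, 1.23-fold lower (adjusted p = 0.0035), and -0.25 ± 0.06 in Vhl mutants against wild type, 1.19-fold lower (adjusted p = 0.033). Pbrm1 mutants differed from wild type by -0.05, with a 95% interval of -0.19 to 0.08 (adjusted p = 0.77). Double mutants differed from Vhl mutants by -0.11, with an interval of -0.24 to 0.03 (adjusted p = 0.40). The interaction was -0.05, with an interval of -0.24 to 0.14 (adjusted p = 0.84). The comparison of double with Pbrm1 mutants is between groups given the same mixed strain. Of the macrophage markers, 8 of 14 rose in double mutants and 11 of 14 in Vhl mutants, each against wild type, and 10 of 14 rose in double against Pbrm1 mutants. Of 9 endothelial markers, 5, 6 and 8 rose in these 3 comparisons. Of 9 kidney epithelium markers, 4, 2 and 3 fell in the same order, and 2, 0 and 1 rose. The part of these marker sets in the fall of Smarca2 was not tested. The call of Vhl mutants against wild type ended without wild-type replicate 1, 3 or 4 or Vhl mutant replicate 1 or 3 (highest adjusted p = 0.091), and it was kept in 8 of 10 other processing settings. The calls in double mutants against wild type and against Pbrm1 mutants were kept without any single array and in all 10 settings. That against Pbrm1 mutants ended without Pbrm1 mutant replicates 1 and 2, which share a description number (adjusted p = 0.065), and without double mutant replicates 1 to 3, which share another.

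The paralog ATPase gene Smarca4 (Brg1) was not called in any of the 6 comparisons. It had log2 levels of 8.51, 8.57, 8.40 and 8.43 in double mutants, 8.44, 8.54, 8.14 and 8.32 in Vhl mutants, 8.44, 8.39, 8.51 and 8.56 in Pbrm1 mutants, and 8.48, 8.52, 8.44 and 8.65 in wild type. The groups overlapped. Its log2 fold change was -0.05 in double mutants against wild type, with an interval of -0.22 to 0.12, and 0.00 in double against Pbrm1 mutants, with an interval of -0.16 to 0.17. In Vhl mutants against wild type it was -0.17, with an interval of -0.33 to -0.00 (limma adjusted p = 0.29). Smarca4 was therefore not called higher where Smarca2 was lower, and the upper ends of its intervals in double mutants were 0.12 against wild type and 0.17 against Pbrm1 mutants.

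Kdm6a, which encodes UTX, a demethylase that removes the Polycomb mark from histone H3, and which lies on the X chromosome, was higher in double mutants. Its log2 levels were 7.94, 8.01, 8.03 and 8.09 in double mutants, 7.71, 7.68, 7.68 and 7.89 in Vhl mutants, 7.79, 7.79, 7.88 and 7.79 in Pbrm1 mutants, and 7.86, 7.87, 7.67 and 7.78 in wild type. All 4 double mutant arrays lay above the other 12 arrays. The log2 fold change was 0.28 ± 0.07 against Vhl mutants (1.21-fold, limma adjusted p = 0.016), 0.23 ± 0.07 against wild type (1.17-fold, adjusted p = 0.035) and 0.21 ± 0.07 against Pbrm1 mutants (adjusted p = 0.057, not called). Since Kdm6a can be transcribed from both X chromosomes in female cells, sex-linked genes were read in every array. Xist, the RNA of the inactive X, was at 2.92 to 3.33 in all 16 arrays, below 3.72, and the Y-linked genes Eif2s3y, Kdm5d and Uty were at 6.03 to 8.01 in all 16. The paralog Uty on the Y chromosome had mean log2 levels of 7.41 ± 0.08 in double mutants, 7.44 ± 0.11 in Vhl mutants, 7.32 ± 0.10 in Pbrm1 mutants, against 7.38 ± 0.16 in wild type (SD, n = 4 each). Limma called 0 of the 4 measured sex-linked genes in the 6 comparisons, and 0 had an unadjusted p under 0.05. Kdm5c, another X-linked demethylase gene, was at 7.86 ± 0.07 in double mutants, 7.70 ± 0.06 in Vhl mutants, 7.76 ± 0.05 in Pbrm1 mutants, against 7.84 ± 0.10 in wild type (SD, n = 4 each) and was not called. The call of Kdm6a against wild type ended without wild-type replicate 3 or 4 or double mutant replicate 2, 3 or 4 (highest adjusted p = 0.12), and it was kept in 5 of 10 other settings (adjusted p 0.024 to 0.12 over the 10). That against Vhl mutants ended without double mutant replicate 4 (adjusted p = 0.064) and was kept in 8 of 10 settings.

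Bap1, which encodes a deubiquitinase that acts on histone H2A, was lower in double mutants than in wild type. Its log2 levels were 7.46, 7.26, 7.32 and 7.19 in double mutants, 7.24, 7.55, 7.40 and 7.21 in Vhl mutants, 7.47, 7.41, 7.41 and 7.46 in Pbrm1 mutants, and 7.54, 7.64, 7.58 and 7.68 in wild type. Double mutants and Pbrm1 mutants lay below wild type in every array, and the Vhl mutants overlapped wild type through replicate 2. The log2 fold change was -0.31 ± 0.08 in double mutants (1.24-fold, limma adjusted p = 0.018), -0.26 ± 0.08 in Vhl mutants (adjusted p = 0.091) and -0.17 ± 0.08 in Pbrm1 mutants (adjusted p = 0.31), each against wild type. Among the mutants, double against Vhl mutants gave -0.05, with an interval of -0.22 to 0.12, and double against Pbrm1 mutants gave -0.13, with an interval of -0.31 to 0.04. The call ended without double mutant replicate 4 (adjusted p = 0.078).

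Bap1 lies on chromosome 14 near Pbrm1, with 7 protein-coding genes between them, so genes around the floxed locus were read as well. Of these 30 measured genes, 15 on each side of Pbrm1, 1 rose and 5 fell in double mutants against wild type, Bap1 being 1 of the 5, where 12.2% of all genes were called. In Pbrm1 mutants 0 rose and 4 fell (4.04% of all genes called), and in Vhl mutants, whose floxed gene is elsewhere, 0 rose and 1 fell (3.84% of all genes called). At an unadjusted p under 0.05 the counts were 8 of 30 in double mutants, 8 in Vhl mutants and 7 in Pbrm1 mutants. Of all genes, 23.4%, 16.4% and 16.1% had such a p in the same order. The part of the floxed locus in these counts was not tested. Tnnc1, which encodes a troponin of slow muscle and heart, fell in all 3 genotypes, by 1.09 ± 0.15 in double mutants (adjusted p = 3.4e-05), 0.88 ± 0.15 in Vhl mutants (adjusted p = 0.0015) and 1.06 ± 0.15 in Pbrm1 mutants (adjusted p = 0.00019) on the log2 scale against wild type. Hacl1, an enzyme of peroxisomal fatty acid breakdown, fell by 0.66 ± 0.12 in Pbrm1 mutants against wild type (adjusted p = 0.0032). It was also lower in double than in Vhl mutants, groups given the same mixed strain. Hacl1 differed there by -0.84 to -0.70 over the 10 other processing settings (highest limma adjusted p = 0.0066). Itih1, a heavy chain of the inter-alpha-trypsin inhibitor, was higher by 0.58 ± 0.11 in double mutants than in wild type (adjusted p = 0.00088). Over the same settings it was also higher than in Vhl mutants, by 0.54 to 0.61 (highest limma adjusted p = 0.026). Against Pbrm1 mutants it was higher by 0.47 to 0.59 (highest adjusted p = 0.018). Of the 30 genes, 2 rose and 1 fell in double against Vhl mutants (6.35% of all genes called). In double against Pbrm1 mutants 3 rose and 0 fell (10.2% of all genes called). Alleles carried with the floxed gene, strain and genotype cannot be told apart in comparisons with wild type. Between double and Vhl mutants, Pbrm1 deletion and alleles carried with its floxed gene cannot be told apart either.

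Setd2, which encodes a histone H3 methyltransferase of transcribed gene bodies, was at 7.91 ± 0.09 in double mutants, 7.85 ± 0.07 in Vhl mutants, 7.92 ± 0.02 in Pbrm1 mutants, against 7.92 ± 0.11 in wild type (SD, n = 4 each). It was not called, and its 95% interval in Pbrm1 mutants against wild type was -0.14 to 0.14. In double mutants against wild type it was -0.16 to 0.13.

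**Figure D2:**
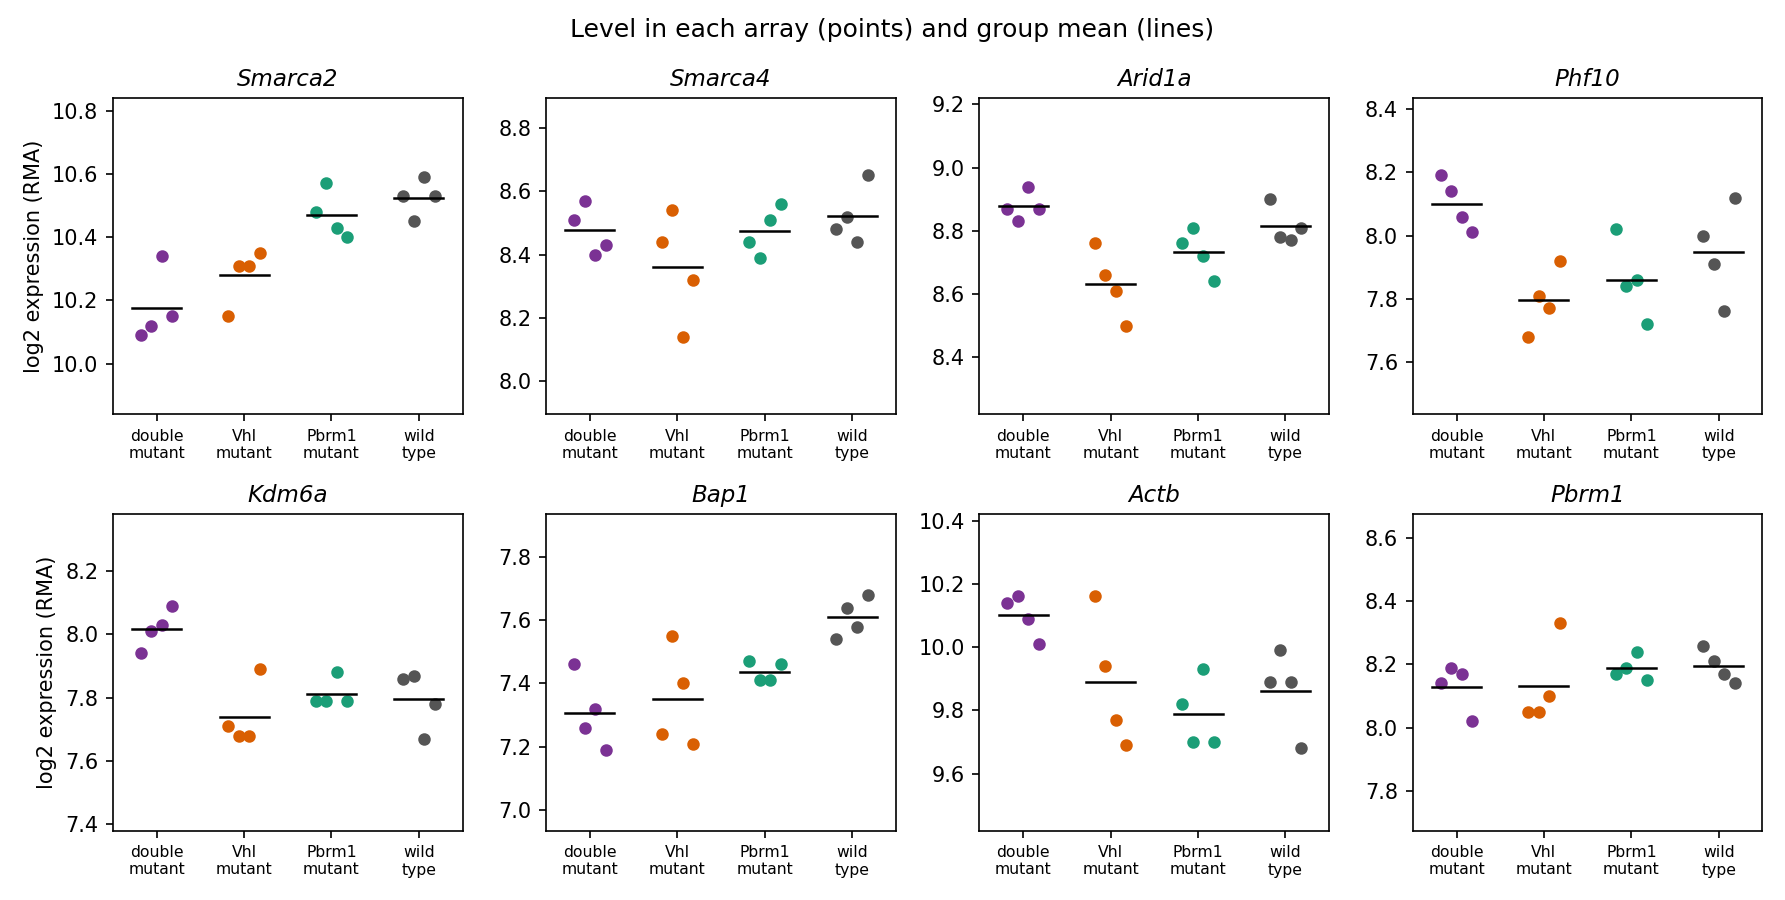
Log2 expression in each array (points) and the group mean (lines) for 8 members, in double mutants, Vhl mutants, Pbrm1 mutants and wild type from left to right; each panel has its own range of 1 log2 unit. Smarca2 separates the 8 double and Vhl mutant arrays from the other 8, Kdm6a is highest in the 4 double mutant arrays, and Pbrm1 overlaps between all groups.

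The PBAF subunits other than Pbrm1 itself were compared next, to see whether its partners moved when Pbrm1 was deleted. Arid2, the ARID subunit of PBAF, had log2 levels of 8.86, 8.79, 8.76 and 8.65 in double mutants, 8.51, 8.51, 8.64 and 8.61 in Vhl mutants, 8.72, 8.68, 8.64 and 8.49 in Pbrm1 mutants, and 8.76, 8.81, 8.52 and 8.49 in wild type. Brd7, its bromodomain subunit, had log2 levels of 7.37, 7.28, 7.16 and 7.17 in double mutants, 7.09, 7.16, 7.19 and 7.21 in Vhl mutants, 7.20, 7.18, 7.28 and 7.42 in Pbrm1 mutants, and 7.32, 7.31, 7.30 and 7.32 in wild type. Phf10, its PHD finger subunit, had log2 levels of 8.19, 8.14, 8.06 and 8.01 in double mutants, 7.68, 7.81, 7.77 and 7.92 in Vhl mutants, 8.02, 7.84, 7.86 and 7.72 in Pbrm1 mutants, and 8.00, 7.91, 7.76 and 8.12 in wild type. Pbrm1 mutants and wild type overlapped for all 3 genes. In Pbrm1 mutants against wild type the 95% intervals were -0.18 to 0.15 for Arid2, -0.19 to 0.11 for Brd7 and -0.26 to 0.09 for Phf10. Limma called none of the 3, with 0 at an unadjusted p under 0.05, where 4.04% of all genes were called and 16.1% had such a p. A second, dimmer Phf10 probe set differed the other way, at 4.38 ± 0.18 in Pbrm1 mutants and 4.03 ± 0.25 in wild type (SD, n = 4 each), with overlap. With both probe sets averaged, the Phf10 log2 fold change was 0.13 (adjusted p = 0.53), so its direction in Pbrm1 mutants depended on the probe set.

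The comparison of double with Vhl mutants shows Pbrm1 deletion added to Vhl deletion, between groups given the same mixed strain. Double mutants lay above Vhl mutants in every array for Arid2 and Phf10. Phf10 rose by 0.30 ± 0.09 (1.23-fold, limma adjusted p = 0.041), and Arid2 had a log2 fold change of 0.19 ± 0.08 (adjusted p = 0.16, not called). The dimmer Phf10 probe set was at 4.44 ± 0.19 in double mutants and 3.90 ± 0.10 in Vhl mutants (SD, n = 4 each), again with no overlap. The Phf10 call ended without double mutant replicate 1, 2 or 3, Vhl mutant replicate 1, 2 or 3 or Pbrm1 mutant replicate 3 (highest adjusted p = 0.10), and it was kept in 5 of 10 settings. The Phf10 interaction was 0.39 ± 0.12 (adjusted p = 0.099), so a difference between the effect of Pbrm1 deletion in Vhl-deleted and in Vhl-intact mice was not called.

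Among canonical BAF subunits, Arid1a, the DNA-binding ARID subunit, had log2 levels of 8.87, 8.83, 8.94 and 8.87 in double mutants, 8.76, 8.66, 8.61 and 8.50 in Vhl mutants, 8.76, 8.81, 8.72 and 8.64 in Pbrm1 mutants, and 8.90, 8.78, 8.77 and 8.81 in wild type. Every double mutant array lay above every array of either single mutant, and every Vhl mutant array lay below wild type. Arid1a rose by 0.25 ± 0.06 in double against Vhl mutants (1.19-fold, limma adjusted p = 0.023), while double mutants and wild type differed by 0.06, with an interval of -0.07 to 0.19. Vhl mutants against wild type gave -0.18 ± 0.06 (adjusted p = 0.12), and the interaction was 0.33 ± 0.09 (adjusted p = 0.056). The call ended without double mutant replicate 3 or 4 or Vhl mutant replicate 4 (highest adjusted p = 0.067), and it was kept in 6 of 10 settings. Its paralog Arid1b had log2 levels of 9.04, 9.00, 8.93 and 8.79 in double mutants, 8.72, 8.93, 8.74 and 8.76 in Vhl mutants, 8.97, 8.99, 8.86 and 8.86 in Pbrm1 mutants, and 8.90, 8.93, 8.90 and 8.92 in wild type. It was not called in any comparison.

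The PHD finger genes of canonical BAF, Dpf1, Dpf2 and Dpf3, were not called either. Dpf3 lay lower in all 3 mutant genotypes than in every wild-type array, at 5.58 ± 0.17 in double mutants, 5.61 ± 0.21 in Vhl mutants and 5.54 ± 0.24 in Pbrm1 mutants, against 5.94 ± 0.16 in wild type (SD, n = 4 each). Its adjusted p-values from limma were 0.099, 0.22 and 0.12. Brd9, the bromodomain subunit of non-canonical BAF, was at 7.03 ± 0.11 in double mutants, 7.01 ± 0.04 in Vhl mutants and 6.86 ± 0.08 in Pbrm1 mutants, against 7.01 ± 0.08 in wild type (SD, n = 4 each), and was not called.

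To set PBAF against canonical BAF within an array, each gene was taken relative to its wild-type mean and the median of 3 PBAF genes (without Pbrm1) was compared with that of the 5 canonical BAF genes. The PBAF median was 0.12 ± 0.09 in double mutants, -0.13 ± 0.08 in Vhl mutants, -0.05 ± 0.10 in Pbrm1 mutants, against -0.02 ± 0.07 in wild type (SD, n = 4 each). The canonical BAF median was -0.02 ± 0.07, -0.16 ± 0.06, -0.08 ± 0.06 and -0.02 ± 0.06 in the same order. PBAF minus canonical BAF was 0.18, 0.16, 0.09 and 0.12 in the double mutant arrays. It ranged from -0.05 to 0.12 in Vhl mutants, from -0.10 to 0.12 in Pbrm1 mutants and from -0.02 to 0.02 in wild type. Double mutants lay above wild type in every array and overlapped both single mutants. These differences were given no test, because the genes were chosen with results of these arrays known. In Pbrm1 mutants the mean of PBAF minus canonical BAF was 0.02 ± 0.10 (SD, n = 4), a shift smaller than the spread between arrays.

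**Figure D3:**
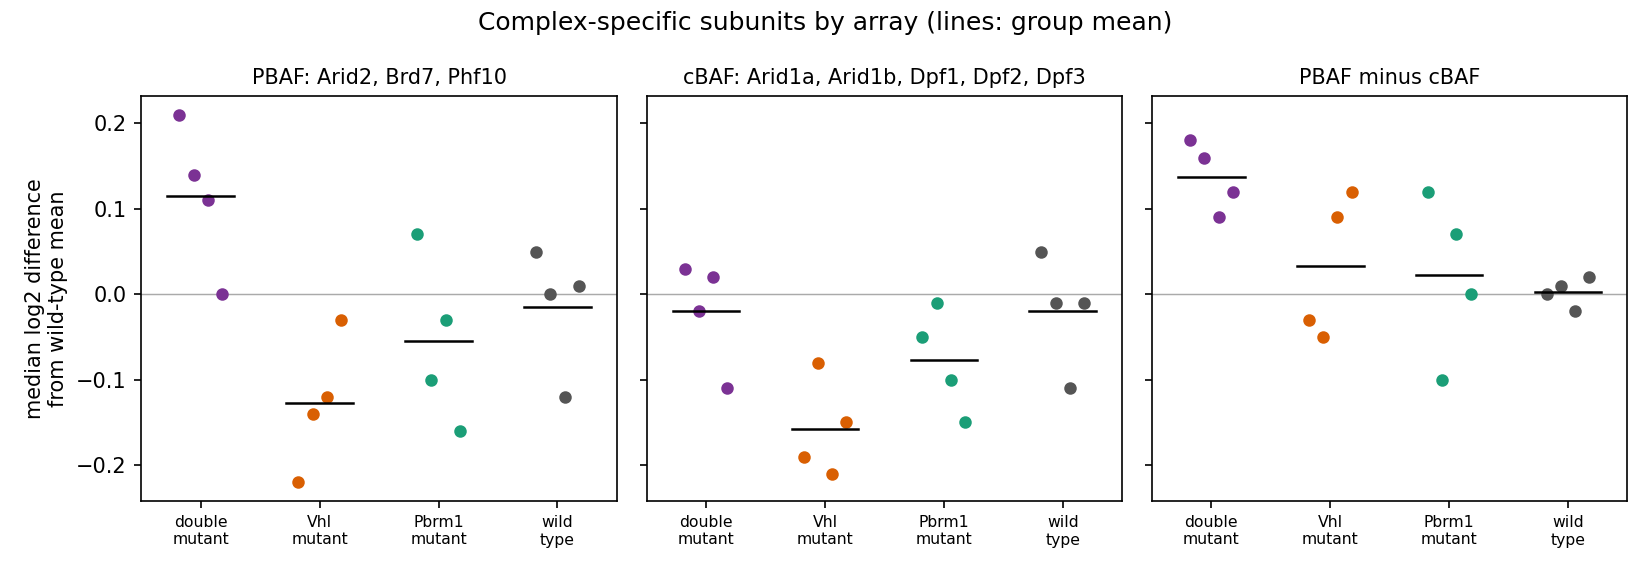
Median log2 difference from the wild-type mean over 3 PBAF genes (left), over 5 canonical BAF genes (middle) and the first minus the second (right), for each array (points) with the group mean (lines). The 4 double mutant arrays lie between 0.09 and 0.18 in the right panel, above the wild-type arrays, and overlap the Vhl and Pbrm1 mutant arrays.

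Over all members, the direction of the small differences varied with the comparison. The median log2 fold change of the 31 members was 0.02 in double mutants against wild type, beside -0.02 over all genes. It was -0.07 in Vhl mutants against wild type, with 24 of 31 members below 0, beside -0.01 over all genes (52.4% below 0). In Pbrm1 mutants against wild type it was -0.05, with 21 of 31 below 0, beside -0.01 (51.3% below 0). In double against Vhl mutants it was 0.09, with 22 of 31 above 0, beside -0.01 (47.6% above 0), and in double against Pbrm1 mutants it was 0.00 beside -0.02. All 4 PBAF genes were below 0 in both single mutants against wild type, with medians of -0.11 in Vhl mutants and -0.03 in Pbrm1 mutants. In Pbrm1 mutants the 4 values lay near 0, from -0.09 to -0.01, and the direction of Phf10 there depended on the probe set. The 5 canonical BAF genes had medians of -0.18 in Vhl mutants and -0.08 in Pbrm1 mutants.

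The core and actin-related subunits gave 1 call among 8 measured genes, in double against Pbrm1 mutants, where 10.2% of all genes were called. Actb, which encodes beta-actin, a component of these complexes and of the cytoskeleton, had log2 levels of 10.14, 10.16, 10.09 and 10.01 in double mutants, 10.16, 9.94, 9.77 and 9.69 in Vhl mutants, 9.82, 9.70, 9.93 and 9.70 in Pbrm1 mutants, and 9.89, 9.99, 9.89 and 9.68 in wild type. Double mutants lay above Pbrm1 mutants and wild type in every array. Actb rose by 0.31 ± 0.09 in double against Pbrm1 mutants (1.24-fold, limma adjusted p = 0.030). The smooth muscle markers Des and Myl9, the only 2 of 8 called in that comparison, rose with it by 0.50 ± 0.10 and 0.35 ± 0.08, as did 10 of 14 macrophage markers, and their part in the Actb value was not tested. The call ended without double mutant replicate 1, 2 or 3 or Pbrm1 mutant replicate 2 or 4 (highest adjusted p = 0.085), and it was kept in 6 of 10 settings. Smarcc1 (BAF155), a scaffold subunit whose gene lies on chromosome 9 with 7 protein-coding genes between it and Setd2, had log2 levels of 7.77, 7.65, 7.68 and 7.68 in double mutants, 7.16, 7.55, 7.41 and 7.61 in Vhl mutants, 7.31, 7.49, 7.61 and 7.52 in Pbrm1 mutants, and 7.44, 7.61, 7.49 and 7.34 in wild type. All double mutant arrays lay above all others, yet no comparison was called (lowest adjusted p = 0.12, against Vhl mutants).

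The other core subunits Smarcb1, Smarcc2, Smarcd1, Smarcd2 and Smarce1 had log2 fold changes of at most 0.15 in size against wild type in any mutant genotype, on the probe set of highest mean. A second Smarcd1 probe set was at 6.23 ± 0.22 in double mutants, 5.77 ± 0.47 in Vhl mutants, 6.30 ± 0.18 in Pbrm1 mutants, against 6.34 ± 0.32 in wild type (SD, n = 4 each), lower on average in Vhl mutants but with overlap. Smarcb1 (SNF5), at 7.74 ± 0.05 in Pbrm1 mutants, against 7.59 ± 0.02 in wild type (SD, n = 4 each), was higher in every Pbrm1 mutant array but was not called (limma adjusted p = 0.30). Actl6b, the neuronal actin-related subunit, was dim, at 4.37 ± 0.18 in double mutants, 4.56 ± 0.14 in Vhl mutants, 4.54 ± 0.14 in Pbrm1 mutants, against 4.61 ± 0.13 in wild type (SD, n = 4 each).

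Limma called 0 of the 7 accessory subunits in the 6 comparisons, where 2.63% to 12.2% of all genes were called. Up to 2 of the 7 stood at an unadjusted p under 0.05 (15.9% to 23.4% of all genes). The furthest values belonged to Bcl7c and Bcl11b. Bcl7c, of the BCL7 family of nucleosome-contacting subunits, had log2 levels of 6.08, 6.17, 6.27 and 6.33 in Pbrm1 mutants, against 5.83, 5.96, 5.92 and 5.74 in wild type. The groups did not overlap, and the log2 fold change was 0.35 ± 0.11, with an interval of 0.12 to 0.58 (limma adjusted p = 0.086). Bcl11b, a zinc finger subunit known from T cells, differed by 0.43 in Pbrm1 mutants (adjusted p = 0.19) and by 0.47 in Vhl mutants (adjusted p = 0.13), each against wild type. Bcl11a lay near the lower quartile of the arrays in every group, with means between 3.71 and 3.97.

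Groups that did not overlap were counted over all members as well. Double mutants and wild type did not overlap for 8 of 31 members, higher for Smarcc1, Actb and Kdm6a and lower for Dpf3, Smarca2, Ss18l1, Bcl7b and Bap1, beside 17.7% of all genes. Double and Vhl mutants did not overlap for 5 members, all higher (Arid2, Phf10, Arid1a, Smarcc1 and Kdm6a), beside 13.8% of all genes. Double and Pbrm1 mutants did not overlap for 5, with Arid1a, Smarcc1, Actb and Kdm6a higher and Smarca2 lower, beside 17.5%. Vhl mutants and wild type did not overlap for 4 (Brd7, Arid1a, Dpf3 and Smarca2, all lower), beside 10.8%. Pbrm1 mutants and wild type did not overlap for 5, with Smarcb1 and Bcl7c higher and Dpf3, Brd9 and Bap1 lower, beside 11.9%.

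Paralogs were then compared within each array, as the difference of their log2 values, so that a rise of one at the expense of the other would move that difference between groups. Of 16 pairs, 13 had both genes measured. Only the shift of the difference between groups is given, since levels of separate probe sets are not comparable. In Pbrm1 mutants against wild type the shift ranged from -0.26 to 0.49 over the 13 pairs, and in 1 pair the groups did not overlap: Bcl7c was higher relative to Bcl7b by 0.46 on the log2 scale. In double mutants against wild type the range was -0.30 to 0.37, and the pair without overlap was Ss18l1 against Ss18, which shifted by -0.22. Ss18 encodes an accessory subunit known from the fusion gene of synovial sarcoma, and Ss18l1 (CREST) its paralog of the nervous system. That pair also shifted by -0.27 between double and Vhl mutants without overlap. In double against Pbrm1 mutants the pair without overlap was Smarcc2 against Smarcc1, at -0.20. In Vhl mutants against wild type 0 pairs were without overlap, with shifts of -0.25 to 0.47. For single genes, groups did not overlap for 10.8% to 17.7% of all genes in these comparisons. The share over pairs of other genes was not computed, so the named pairs are not set apart from it.

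Pairs of counterpart subunits between complexes, and the ATPase pair, overlapped between groups in every comparison. Arid2 against Arid1a, the ARID subunits of PBAF and canonical BAF, shifted by 0.06 in double mutants, 0.10 in Vhl mutants and 0.07 in Pbrm1 mutants relative to wild type, and the groups overlapped in each case. Brd7 against Brd9 shifted by -0.09, -0.15 and 0.11, and Phf10 against Dpf2 by 0.26, 0.15 and 0.10, again with overlap. Smarca2 against Smarca4 shifted by -0.30 in double mutants against both wild type and Pbrm1 mutants, with overlap, and by -0.00 in Pbrm1 mutants against wild type. Pbrm1 itself was in no pair, so replacement of the deleted subunit was not tested.

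**Figure D4:**
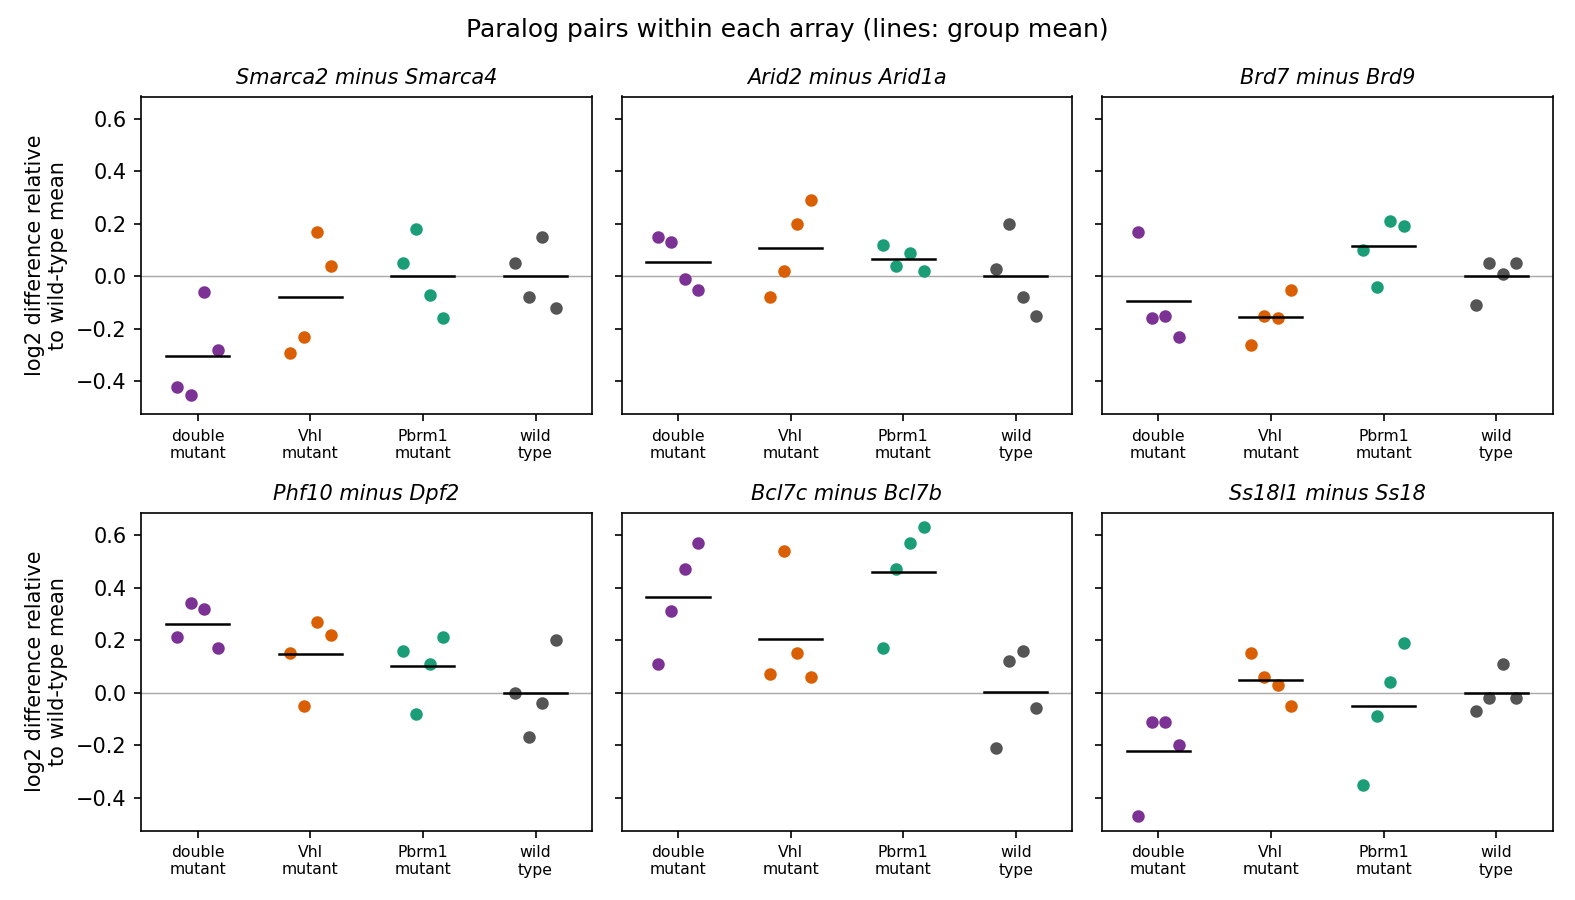
Log2 difference of 6 paralog or counterpart pairs within each array (points), relative to the wild-type mean of that pair, with group means (lines). Double mutants average -0.30 for Smarca2 minus Smarca4, Pbrm1 mutants average 0.46 for Bcl7c minus Bcl7b with no overlap with wild type, and Arid2 minus Arid1a overlaps between all groups.

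Related chromatin regulators outside the member list were read in the same fit. Among 26 genes of other remodelers, Chd3, an ATPase of the NuRD complex, fell in double mutants, with mean log2 levels of 9.02 ± 0.10 in double mutants, 9.49 ± 0.09 in Vhl mutants, 9.60 ± 0.15 in Pbrm1 mutants, against 9.65 ± 0.03 in wild type (SD, n = 4 each). Its log2 fold change was -0.64 ± 0.07 against wild type (limma adjusted p = 3.5e-06), -0.48 ± 0.07 against Vhl mutants (adjusted p = 0.00026) and -0.59 ± 0.07 against Pbrm1 mutants (adjusted p = 9.7e-06), and the interaction was -0.43 ± 0.10 (adjusted p = 0.027). With the mean of its probe sets in place of the brightest, the value was -0.41 against wild type (adjusted p = 0.0016), and -0.25 against Vhl mutants, where it was no longer called (adjusted p = 0.075). The interaction of Chd3 was kept in 6 of 10 settings and ended without wild-type replicate 1, double mutant replicate 4, Pbrm1 mutant replicate 2 or Vhl mutant replicate 2 (highest adjusted p = 0.064).

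Each of the other named calls among these 26 genes was lost under some settings. In double against Vhl mutants 1 rose (3.8% of all genes were called higher), Srcap (0.22 ± 0.06, limma adjusted p = 0.032), an ATPase that exchanges histone H2A variants. Its call was kept in 6 of 10 settings and ended without double mutant replicate 1, 3 or 4 or Vhl mutant replicate 3. In double against Pbrm1 mutants 4 rose and 1 fell (10.2% of all genes called). Hells (0.54 ± 0.14, adjusted p = 0.015) was kept in 9 of 10 settings and ended without double mutant replicate 2 or Pbrm1 mutant replicate 3. Baz2b (0.28 ± 0.07, adjusted p = 0.018) was kept in 6 of 10 and ended without Pbrm1 mutant replicate 1 or 2. Chd4 (0.23 ± 0.06, adjusted p = 0.017), a paralog of Chd3, was kept in 6 of 10 and ended without double mutant replicate 3. In Pbrm1 mutants against wild type 1 of the 26 fell (4.04% of all genes called), Baz1b (-0.37 ± 0.09, adjusted p = 0.026), which was kept in 6 of 10 settings and ended without wild-type replicate 1 or 2 or Pbrm1 mutant replicate 3 or 4.

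Among 30 measured partners and relatives of the histone-modifying members, 5 rose and 0 fell in double against Vhl mutants, where 6.35% of all genes were called and 3.8% were called higher. They included Ogt, the O-GlcNAc transferase that BAP1 complexes contain, Kmt2d and Kmt2b, methyltransferases of histone H3, and Kdm6b, the paralog of Kdm6a. Kmt2d had mean log2 levels of 8.38 ± 0.05 in double mutants and 7.90 ± 0.22 in Vhl mutants (SD, n = 4 each) and rose by 0.49 ± 0.09 (limma adjusted p = 0.0020). Kdm6b rose by 0.32 ± 0.07 (adjusted p = 0.0047) and Kmt2b by 0.30 ± 0.08 (adjusted p = 0.024), each kept in 7 of 10 settings. With all probe sets of a gene averaged, Kdm6b differed by 0.17 (adjusted p = 0.26), and the Kmt2b call ended without double mutant replicate 4 or Vhl mutant replicate 4 (highest adjusted p = 0.076). Ogt, at 10.33 ± 0.02 in double mutants, 10.06 ± 0.05 in Vhl mutants, 10.11 ± 0.07 in Pbrm1 mutants, against 10.05 ± 0.02 in wild type (SD, n = 4 each), rose in double mutants against all 3 other genotypes, by 0.27 ± 0.05 against Vhl mutants (adjusted p = 0.0011), 0.23 ± 0.05 against Pbrm1 mutants (adjusted p = 0.0030) and 0.28 ± 0.05 against wild type (adjusted p = 0.00040). Ogt, like Kdm6a, is X-linked. In Pbrm1 mutants against wild type the Polycomb genes Suz12 (0.36 ± 0.08, adjusted p = 0.016) and Asxl3 (0.48 ± 0.12, adjusted p = 0.021) rose, and in Vhl mutants against wild type Eed fell (-0.39 ± 0.10, adjusted p = 0.025), each kept in 8 of 10 settings. These calls ended without Pbrm1 mutant replicate 4 for Suz12, without wild-type replicate 2 or Pbrm1 mutant replicate 3 or 4 for Asxl3, and without wild-type replicate 1 or 2 or Vhl mutant replicate 1 or 2 for Eed. Of all genes, 4.04% were called in the first comparison and 3.84% in the second. In double against Pbrm1 mutants Ogt and Kdm5b rose and Asxl3 fell, where 10.2% of all genes were called. Kdm5b differed there by 0.30 to 0.37 over the 10 other settings and was called in all 10.

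Of 14 measured renal cancer genes outside the member list, Vhl among them, 4 fell and 0 rose in double mutants against wild type, where 12.2% of all genes were called. Mtor, the kinase of growth control, fell by 0.29 ± 0.06 (limma adjusted p = 0.0049), and Met, the receptor of hepatocyte growth factor, fell by 0.33 ± 0.08 (adjusted p = 0.013). Nfe2l2, which encodes the antioxidant regulator NRF2, fell by 0.23 ± 0.06 in double mutants (adjusted p = 0.011) and by 0.39 ± 0.06 in Pbrm1 mutants (adjusted p = 0.00025). In Vhl mutants against wild type 1 of the 14 fell (3.84% of all genes called). It was Met, called in 9 of 10 other settings (-0.41 to -0.35). In Pbrm1 mutants 2 fell, Nfe2l2 and Fh1 (4.04% of all genes called). The Nfe2l2 interaction was called (2.63% of all genes called) and was kept in 4 of 10 settings (0.27 to 0.31). Between double and Vhl mutants, and between double and Pbrm1 mutants, limma called 0 of the 14, with 4 at an unadjusted p under 0.05 in each comparison. Of all genes, 6.35% and 10.2% were called in these comparisons, and 19.4% and 21.7% had such a p.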

How the data were processed

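Gene expression was measured on 16 Affymetrix arrays of kidney cortex, 4 for each of 4 genotypes. The authors deposited log2 values. The submitters' processing notes name RMA (robust multi-array averaging) and Affymetrix Expression Console 1.4. The array signal is summarised per probe set, so the number of arrays limits the precision.

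Of 41345 probe sets, 23521 carried 1 gene symbol; the 1814 with several and the 16010 without a listing were left out. The probe set of highest mean stood for each of 22180 genes, and no filter on dim genes was applied. Groups were taken from the labels. The labels give 8 description numbers, which may mark animals, and double mutant replicates 2 and 3 share a full description. In limma 3.58.1 (R 4.3.3), a linear model took genotype as the fixed effect and the description number as a random block (statmod 1.5.0, estimated correlation 0.0838), and moderated tests used a prior variance that followed mean expression. The fit weights double mutant replicate 4 more, so a fold change can depart a little from the plain difference in means. The fit was tested on simulated data. Tables used pandas 2.3.3 and numpy 2.4.6 in Python 3.11.15, and figures used matplotlib 3.10.9.

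The members, the subunit groups, the paralog pairs and the other gene lists were chosen with earlier results of these data known, so no list was tested. Array values are given for members called in any comparison, the deleted genes, Arid2, Brd7, Phf10, Arid1a and Arid1b; those given for Smarca4, Smarcc1 and Bcl7c were chosen after values were seen. Called genes named from other lists are among the up to 4 of lowest adjusted p per comparison, and not all of those are named. The alternatives were no block, the replicate number as a block, arrays averaged per description number, merged double mutant replicates 2 and 3, dim genes left out, all probe sets of a gene averaged, arrays centred on their median, quantile normalization, no trend in the prior variance, omission of the 3 arrays of highest adipose marker level, and omission of each array or description number in turn.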

Additional observations from a re-analysis of the deposited data

Results flagged for a closer look

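Among the 31 measured members in the 4 groups, 124 sets of 4 arrays were checked for an array that stood far from the other 3, and 5 were found; chance alone gives about 1 in 20. Kdm6a was at a log2 level of 7.89 in Vhl mutant replicate 4, with the other 3 arrays at 7.68 to 7.71. Kdm6a was at 7.88 in Pbrm1 mutant replicate 3, with the other 3 at 7.79. Bcl7b was at 7.43 in double mutant replicate 4, with the other 3 at 7.69 to 7.72, and at 7.88 in Pbrm1 mutant replicate 1, with the other 3 at 7.67. Bcl11a, close to the lower quartile of the probe sets, was at 3.60 in wild-type replicate 1, with the other 3 at 3.81 to 3.85.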

How the results depend on the processing

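Counts of called members are given under each alternative that moved them by over 1.5 times. With arrays averaged per description number, the count was 0 in Vhl mutants against wild type (1 in the report), 0 in double against Vhl mutants (3) and 1, Smarca2, in double against Pbrm1 mutants (2). Without a trend in the prior variance these counts were 0, 1 (Kdm6a) and 1 (Smarca2). Quantile normalization left 1 in double against Vhl mutants (Kdm6a), and omission of the 3 arrays of highest adipose marker level (double mutant replicate 3, Pbrm1 mutant replicate 3 and Vhl mutant replicate 2) left 0. Merging double mutant replicates 2 and 3, or centring arrays on their median, left 1 in double against Pbrm1 mutants (Smarca2). With no block, 1 member was called for the interaction (Arid1a). Leaving out 1 array or 1 description number at a time gave 0 to 2 members in Vhl mutants against wild type, 0 to 1 in Pbrm1 mutants against wild type (Bcl7c), 1 to 4 in double mutants against wild type, 0 to 3 in double against Vhl mutants, 0 to 4 in double against Pbrm1 mutants and 0 to 2 for the interaction. The cause of these changes was not tested.

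The replicate numbers of the titles did not pair the samples: none of 24 pairs of same-numbered arrays from different groups had deviations that correlated above 0.1 (range -0.07 to 0.06). With the replicate number as a block, 1 member was called for the interaction (Arid1a) and 4 in double mutants against wild type, with Actb added. No fold change of a called member reversed under any alternative run. Smarca2 in double mutants against wild type was called in all 10 alternatives, without each of 16 arrays and without each of 7 description numbers. Bap1 was called in all 10 alternatives, without 15 of 16 arrays and without 5 of 7 description numbers. Leaving out double mutant replicates 1 to 3, which leaves 1 array in that group, assumed to vary like the others, ended every member call in double mutants but that of Smarca2 against wild type. Against Pbrm1 mutants, the Smarca2 call also ended without Pbrm1 mutant replicates 1 and 2 (-0.24, adjusted p = 0.065). The Kdm6a call against wild type ended in 5 of 10 alternatives: arrays averaged per description number, double mutant replicates 2 and 3 merged, arrays centred on their median, no trend, and the 3 arrays of highest adipose marker level left out (values 0.20 to 0.25). The array-wide median shifted by up to 0.07 on the log2 scale on centring, and the split of all called genes in Vhl mutants against wild type went to 355 higher and 622 lower, against 453 higher and 398 lower as deposited. In double against Pbrm1 mutants it was 1193 higher and 1079 lower when centred, against 1513 higher and 747 lower as deposited, and in double against Vhl mutants 719 higher and 779 lower after quantile normalization, against 842 higher and 566 lower as deposited.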
